A study of Triticum aestivum with 10 samples.

Results

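Of 37826 wheat probes on the array, 26 formed the set described here: probes that read far lower in cold-grown leaves than in leaves at 23 °C, and about equally so in a line with hybrid necrosis and in a line without it. The level of a probe was the log2 of its processed signal minus the 75th percentile of its array, averaged over 2 arrays per group. A member had to be detected, that is marked as well above background, by both arrays of the 23 °C leaf, which held for 28258 probes, and at least 4 lower in the cold leaf of each line, which is a fall of at least 16-fold. Its cold leaf had to differ by at most 1 between the lines, its cold shoot by less than 1, and its wild-type cold leaf by less than 5 from the wild-type cold shoot. The members were chosen by these measured values, so their values are given as a description, with no test.

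The plants were synthetic hexaploid wheat, a bread wheat remade by crossing tetraploid wheat with a wild goat grass. The 5 groups, of 2 arrays each, were necrotic-line leaf after 12 weeks at 4 °C, wild-type leaf after 12 weeks at 4 °C, necrotic-line shoot after 6 weeks at 4 °C, wild-type shoot after 6 weeks at 4 °C, and necrotic-line leaf at 23 °C. Every plant first had 3 weeks at 23 °C, and the necrotic line carries the phenotype of hybrid necrosis induced by cold, while the wild-type line is of normal phenotype. A wild-type leaf at 23 °C was not used here, so the fall of the wild-type leaf was taken against the necrotic line's leaf, and for that line cold and genotype change together.

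Wheat survives winter by cold acclimation, a slow change of gene activity in which genes for protective proteins are switched on and many genes for growth and photosynthesis are turned down. Hybrid necrosis is a disorder of some hybrids in which leaf tissue dies although no pathogen is present, and in the type studied here low temperature sets it off. The shoot sample holds the growing point, from which new leaves arise, so it contrasts young dividing tissue with expanded leaf. The probes carry the names of expressed-sequence clones and contigs, and no table used here pairs them with genes: 0 of the 37826 names were found in the wheat reference table. No member can therefore be given a gene function, and the members are ordered below by where else in the plant their signal was seen.

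Between 28487 and 32630 probes per array were well above background, and no spot was saturated. Per the file headers, the 2 arrays at 23 °C were on slide 1, the 4 shoot arrays on slide 2 and the 4 cold leaf arrays on slide 3, so in any comparison with the 23 °C leaf the temperature cannot be told apart from the age of the plants, the slide or the scan. Tissue, weeks of cold and slide likewise cannot be told apart between leaf and shoot, while each line comparison lies within 1 slide. Probes not well above background also read higher at 23 °C, with a median level of −9.04 there against −9.97 in necrotic and −9.86 in wild-type cold leaf, and the part of this offset in the falls was not tested. The 75th percentile of the signal was 789 and 808 on the 23 °C arrays and 1539 to 1777 on the cold leaf arrays. Scaling to it thus makes every fall larger than in the unscaled signals. The design text calls the 2 arrays of a group independent experiments, and whether they stem from different plants is not given, so their spread may be technical. The leaf and shoot identity could not be checked against marker genes, since the probes are not named by gene.

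Probes with the cold leaf of both lines far below the necrotic line's 23 °C leaf were rare. Of the 28258 probes detected at 23 °C, 149 (0.527%) were at least 4 lower in the cold leaf of both lines. The limit on the leaf line difference removed 47 of these, 26 of them higher and 21 lower in the necrotic leaf. The limit on the shoot line difference removed 63 more, of which 19 were higher and 44 lower in the necrotic shoot. The last limit, on leaf against shoot, removed 13 and left 26, which is 0.092% of the probes detected at 23 °C. With the other limits unchanged, 2181 probes were at least 1 lower, 289 at least 2, 69 at least 3, 12 at least 5, 4 at least 6 and 3 at least 8.

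Over the 26 members the median difference of cold leaf from 23 °C leaf was −5.23 in the necrotic line and −5.14 in the wild-type line, against −0.18 and −0.17 over the 33045 probes tested. By the fit with limma at an adjusted p under 0.05, all 26 members were called lower in each cold leaf. Of all probes tested, 45.2% were called lower and 31.6% higher in the necrotic leaf at 4 °C than in the leaf at 23 °C, and 44% lower and 32.7% higher in the wild-type leaf at 4 °C. The choice of members fixes the members' count, and nothing is read from it. With normexp background correction the medians were smaller, −3.06 in necrotic and −3.18 in wild-type leaf. Of the 26 values, 12 in necrotic and 10 in wild-type leaf rest on cold leaf signal that was not detected. Among the 12 members detected on all cold leaf arrays, the necrotic cold leaf was the lower for 5. Both falls are taken from the same 23 °C leaf, so this count only restates the line difference in cold leaf.

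**Figure D1:**
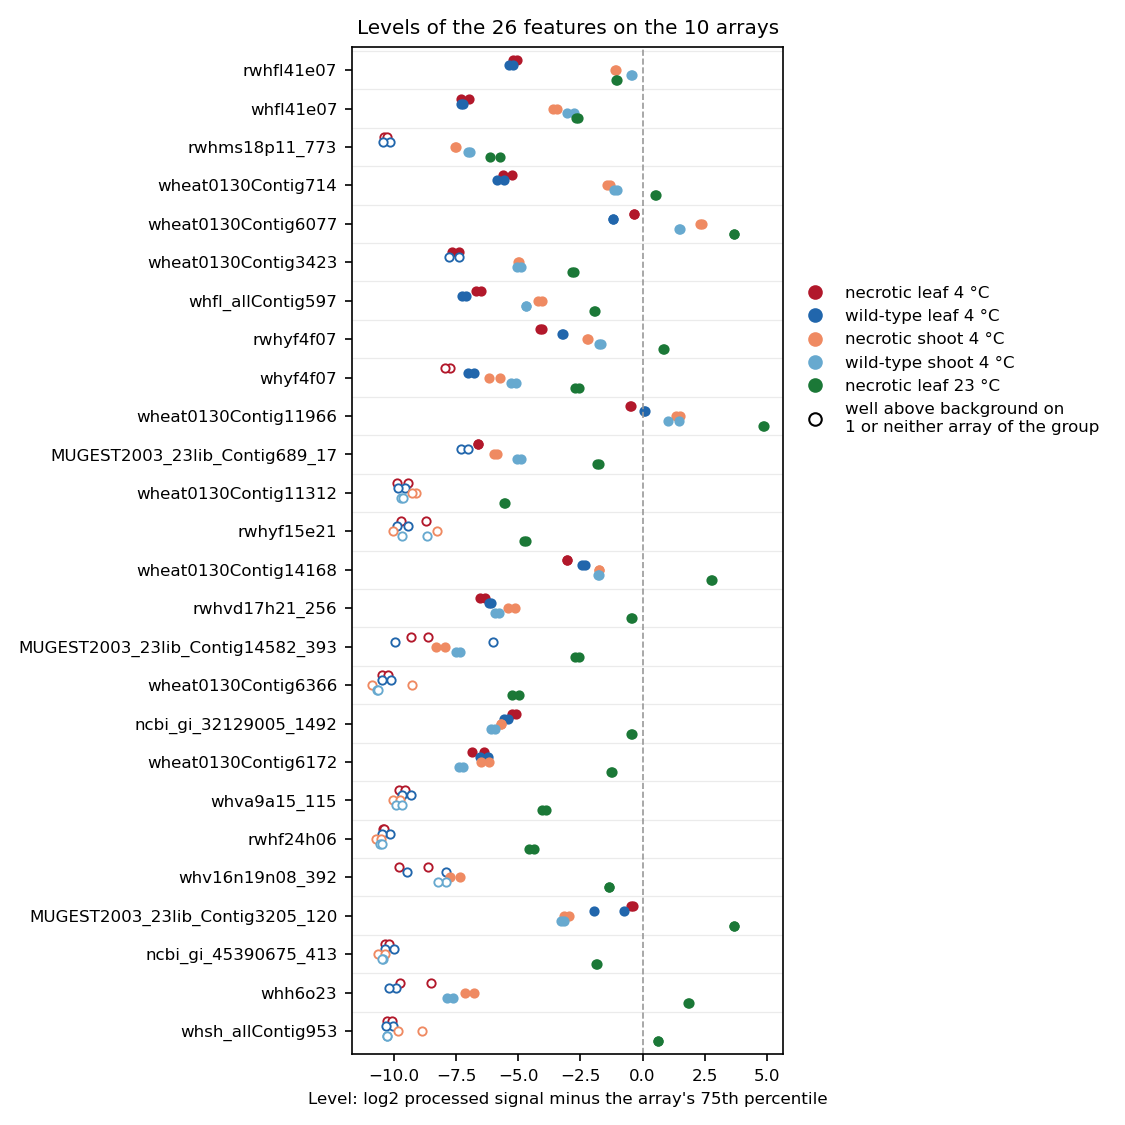
Level of each of the 26 probes (rows) on each of the 10 arrays (2 points per group), on the log2 scale relative to the 75th percentile of the array, which is the dashed line at 0. Open points are groups in which the probe was not well above background on both arrays. The 23 °C leaf lies right of both cold leaf groups in every row. The shoot points run from beside the 23 °C leaf (top row) to far left of it (lower rows). In the lower rows they lie beside or left of the cold leaf for some probes and right of it for others, such as whh6o23.

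The members do not all rest on equally good measurements. All 10 arrays detected 12 members, 4 more were detected on some of the 4 cold leaf arrays, and the other 10 were well above background on none of the cold leaf arrays. In the 12 measured throughout, the 23 °C leaf was 16.4-fold to 64.8-fold above the necrotic cold leaf (median 28.4-fold) and 16.8-fold to 76.0-fold above the wild-type cold leaf (median 33.2-fold). These folds hold for the main processing, and with normexp correction all 12 falls were smaller in both lines. In necrotic and wild-type leaf the log2 falls then ran from −5.36 and −4.87 for wheat0130Contig14168 to −2.43 and −2.55 for whfl41e07. For a probe without detected signal only a bound can be given, from the mean of the bright group over the lowest signal counted as above background on the dim arrays or, where higher, the probe's own. Of the 10 members undetected in cold leaf, 5 had bounds of at least 16-fold in both lines. The other 5 had bounds of 4.29-fold to 13.1-fold, below the 16-fold of the selection, because their level at 23 °C was itself low. Of the 26 members, 21 had a measured value or a bound of at least 16-fold in both cold leaves. This count takes a mean as measured even where only 1 of the 2 arrays detected the probe. For MUGEST2003_23lib_Contig14582_393 the 40.9-fold of the wild-type leaf averages −9.99, undetected, and −6.00, detected.

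By the main processing the largest measured falls belonged to wheat0130Contig714 and rwhvd17h21_256. The level of wheat0130Contig714 was −5.27 and −5.60 in necrotic cold leaf, −5.58 and −5.87 in wild-type cold leaf, −1.43 and −1.29 in necrotic shoot, −1.15 and −1.03 in wild-type shoot, and 0.50 and 0.54 in the 23 °C leaf. The 4 cold leaf arrays lay far below all others, the 4 shoot arrays lay between, and the cold leaf arrays of the 2 lines overlapped. Its leaf at 23 °C was 62.1-fold above the necrotic and 76.0-fold above the wild-type cold leaf, log2 differences of −5.96 and −6.25 (SE 0.14 each). With normexp correction these differences were −4.56 and −4.62.

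The level of rwhvd17h21_256 was −6.55 and −6.36 in necrotic cold leaf, −6.12 and −6.20 in wild-type cold leaf, −5.15 and −5.40 in necrotic shoot, −5.93 and −5.77 in wild-type shoot, and −0.41 and −0.47 in the 23 °C leaf. All 8 cold arrays were low for this probe, shoots included, which sets it apart in pattern from wheat0130Contig714. Its fall was −6.02 in necrotic and −5.72 in wild-type leaf (SE 0.11 each), and its shoots stood 28.5-fold and 42.6-fold below the 23 °C leaf in the necrotic and wild-type lines. With normexp correction the falls were −4.18 in necrotic and −4.12 in wild-type leaf.

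The highest readings at 23 °C were those of wheat0130Contig11966 and wheat0130Contig6077, the second level with MUGEST2003_23lib_Contig3205_120 at 3.68 each, although readings of different probes do not rank their transcripts. The level of wheat0130Contig11966 was −0.46 and −0.52 in necrotic cold leaf, 0.05 and 0.10 in wild-type cold leaf, 1.53 and 1.33 in necrotic shoot, 1.04 and 1.48 in wild-type shoot, and 4.85 and 4.88 in the 23 °C leaf. It lay near the 75th percentile in cold leaf, and its processed signal of 22747 and 23847 at 23 °C compared with 1171 and 1074 in necrotic and 1843 and 1734 in wild-type cold leaf. Its fall was 41.0-fold in necrotic and 27.6-fold in wild-type leaf. Of the 26 members, 8 lay above the 75th percentile in the 23 °C leaf, 2 in both shoot groups, and only wheat0130Contig11966 in a cold leaf group.

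The level of wheat0130Contig6077 was −0.35 on both necrotic cold leaf arrays, −1.20 and −1.19 in wild-type cold leaf, 2.30 and 2.38 in necrotic shoot, 1.47 and 1.50 in wild-type shoot, and 3.70 and 3.67 in the 23 °C leaf. The necrotic line was the higher in both tissues with no overlap of arrays, by 0.84 in leaf and by 0.85 in shoot (SE 0.04 each). Its fall in the necrotic leaf, −4.04, was the closest of all members to the limit, followed by that of rwhfl41e07 at −4.06. Just outside were whsd19b16_59, whose smaller fall was −3.96, and MUGEST2003_23lib_Contig16124_963, whose smaller fall was −3.94.

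For the deepest falls only a bound could be given. The level of whh6o23 at 23 °C was 1.88 and 1.83, well above the 75th percentile, with processed signals of 2907 and 2872. On the cold leaf arrays its signals were 4.45 and 1.78 in necrotic and 1.83 and 1.34 in wild-type line, none of them well above background. The 23 °C leaf was at least 1037-fold above the necrotic and at least 954-fold above the wild-type cold leaf. These bounds hold for the main processing only: with normexp correction the log2 falls were −6.55 in necrotic and −6.65 in wild-type leaf. The shoots still held a weak detected signal, 17.0 and 13.2 in necrotic and 9.45 and 8.15 in wild-type line, which is 453-fold and 782-fold below the 23 °C leaf. These shoot folds hold for the main processing too. Averaged over the lines, shoot minus 23 °C leaf was −9.22 in it and −6.57 with normexp correction.

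For whsh_allContig953 the 23 °C leaf gave signals of 1205 and 1232, and no cold array detected the probe. Its signals were 1.27 and 1.40 in necrotic cold leaf, 1.70 and 1.26 in wild-type cold leaf, 2.07 and 3.96 in necrotic shoot and 1.51 and 1.50 in wild-type shoot. The bounds were at least 437-fold for the necrotic and at least 402-fold for the wild-type leaf. In the same way ncbi_gi_45390675_413 was at least 80.0-fold and at least 73.6-fold lower, and whv16n19n08_392 at least 112-fold and at least 93.0-fold lower, in necrotic and wild-type cold leaf. With normexp correction the log2 falls in necrotic and wild-type leaf were smaller than these bounds. They were −5.36 and −5.46 for whsh_allContig953, −3.33 and −3.40 for ncbi_gi_45390675_413, and −3.16 and −3.26 for whv16n19n08_392.

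Detection at 23 °C alone was the pattern of 7 members: whsh_allContig953, ncbi_gi_45390675_413, rwhf24h06, whva9a15_115, wheat0130Contig6366, rwhyf15e21 and wheat0130Contig11312. For these probes the likeness of the 2 lines in cold leaf and in shoot compares arrays that all read at background, and it carries no information on the lines. In necrotic and wild-type cold leaf the bounds were at least 18.4-fold and 16.9-fold for whva9a15_115 and at least 13.1-fold and 12.0-fold for rwhf24h06. They were at least 10.8-fold and 9.94-fold for rwhyf15e21, 8.28-fold and 7.62-fold for wheat0130Contig6366, and 6.05-fold and 5.56-fold for wheat0130Contig11312. Another 3 members, whh6o23, whv16n19n08_392 and rwhms18p11_773, were undetected in cold leaf but detected on shoot arrays. Of these, rwhms18p11_773 had signals of 1.17 and 1.24 in necrotic cold leaf, 1.53 and 1.16 in wild-type cold leaf, 10.1 and 10.2 in necrotic shoot, 14.6 and 15.2 in wild-type shoot, and 11.2 and 15.1 in the 23 °C leaf. Before scaling, its shoot and 23 °C signals were therefore alike, and the bound on its fall was no more than 4.66-fold in necrotic and 4.29-fold in wild-type leaf.

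The shoots divided the set. In 14 members the shoots of both lines were at least 4 below the 23 °C leaf, in 2 they were within 1 of it or above, and in 10 they lay between. Of the 14, 7 were measured in both shoots, 1 in the necrotic shoot alone and 6 in neither, so for those 6 only a bound holds. The bound was under 16-fold in 1 or both shoots for 3, wheat0130Contig6366, rwhyf15e21 and rwhf24h06, and the lowest was at least 9.94-fold, in the wild-type shoot for wheat0130Contig6366. The other 11 had a value or bound of at least 16-fold in both. The 14 low in shoots include 5 of the 12 probes detected on every array and 6 of the 7 detected only at 23 °C. Against the 23 °C leaf the median of the members was −4.47 in the necrotic shoot, where the median of all probes tested was 0.13. In that comparison 25 members were called lower and 0 higher, where 38.2% of all probes tested were called lower and 45.3% higher. The same 23 °C arrays that chose the members as high enter this comparison, so the count is no independent sign of a low shoot level.

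**Figure D2:**
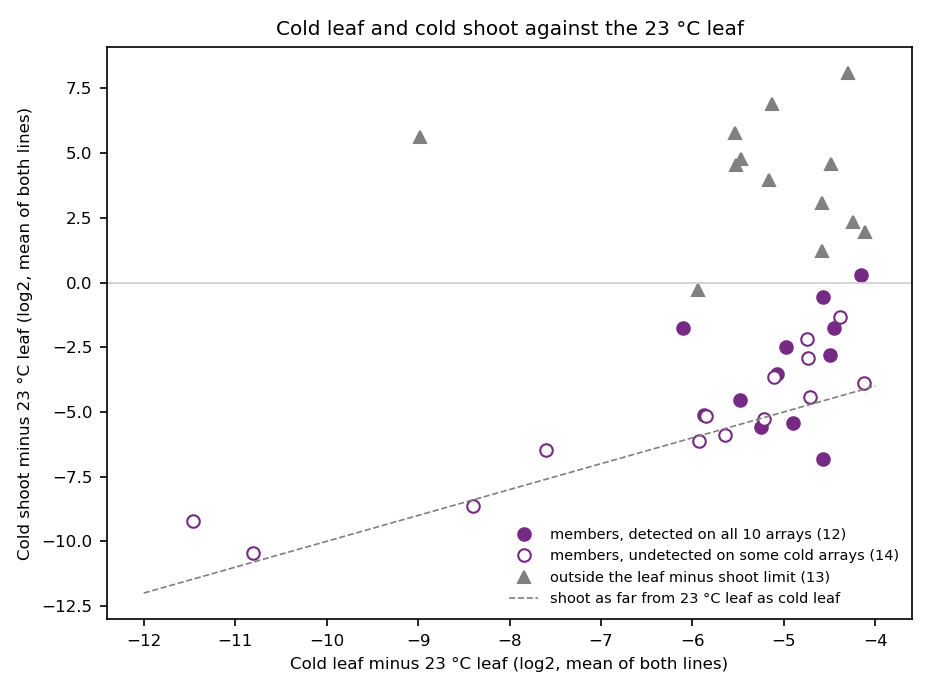
Cold shoot minus 23 °C leaf (vertical axis) against cold leaf minus 23 °C leaf (horizontal axis), both in log2 and averaged over the lines, for the 26 members (circles, open where some cold array did not detect the probe) and for the 13 probes that met all limits but that on leaf against shoot (triangles). The members run from 0.28 down to −10.44 on the vertical axis, most of them near or above the dashed line of equal distance, and the 13 others from −0.27 up to 8.10.

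The 13 probes removed by the last limit show what that limit did. All 13 were lower in leaf than in shoot, and their shoots stood at a median of 4.55 above the 23 °C leaf. The members are thus the remainder of 39 probes after those with a far brighter shoot were taken out, and the share of members low in shoots is partly set by that limit.

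Where leaf and shoot were both cold, most members with detected signal were still the lower in leaf. Among the 12 members detected on all arrays, the shoots of both lines lay above the cold leaf for 9 and below it for 2. Over all 26 members the median of leaf minus shoot was −1.23 in necrotic and −0.61 in wild-type line, against −0.24 and −0.22 over all probes tested. These medians depend on the processing: they were −0.41 in necrotic and −0.21 in wild-type plants with quantile normalization, where those of all probes were 0.11 and 0.15, and −0.0143 and −0.0424 with normexp. In the necrotic line 17 members were called lower and 2 higher in leaf, where 48.9% and 34.4% of all probes tested were. In the wild-type line 14 were called lower and 3 higher, where the shares of all probes were 48.7% and 39.3%. Of the 12 members detected on all arrays, 9 were called lower and 2 higher in the necrotic line, and 9 lower and 3 higher in the wild-type line. Their medians were −1.89 in necrotic and −1.35 in wild-type line. In a fit of only the 27023 probes detected on all arrays, 12345 were called lower and 10639 higher in the necrotic line. In the wild-type line 12151 were lower and 12102 higher. The rule chose the members as low in both cold leaves and bounded the wild-type leaf minus shoot. These counts and medians are therefore no independent sign that members are lower in leaf than in shoot.

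The members highest in shoots against 23 °C leaf were rwhfl41e07 and whfl41e07, whose names share a clone. The level of rwhfl41e07 was −5.04 and −5.20 in necrotic cold leaf, −5.21 and −5.39 in wild-type cold leaf, −1.12 and −1.08 in necrotic shoot, −0.43 and −0.47 in wild-type shoot, and −1.09 and −1.03 in the 23 °C leaf. Only the 4 cold leaf arrays were low, the necrotic shoot arrays overlapped those of the 23 °C leaf, and the wild-type shoot arrays lay above both. The cold leaf was 16.7-fold lower in necrotic and 19.0-fold lower in wild-type line than the 23 °C leaf, and the shoot differed from that leaf by −0.05 in necrotic and 0.61 in wild-type line (SE 0.08 each). With normexp correction the log2 falls were −2.93 in necrotic and −3.07 in wild-type leaf.

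The level of whfl41e07 was −7.31 and −6.97 in necrotic cold leaf, −7.33 and −7.25 in wild-type cold leaf, −3.43 and −3.61 in necrotic shoot, −2.75 and −3.04 in wild-type shoot, and −2.61 and −2.67 in the 23 °C leaf. Both probes of the clone thus gave one shape, low in cold leaf alone. Their line differences were −0.66 and −0.63 in shoot. In leaf they were 0.18 (SE 0.08) and 0.15 (SE 0.14), neither of them called by the limma fit, and the lines overlapped in leaf for whfl41e07.

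Among the members whose shoots lay between, whfl_allContig597 had −6.50 and −6.72 in necrotic cold leaf, −7.11 and −7.27 in wild-type cold leaf, −4.04 and −4.19 in necrotic shoot, −4.70 and −4.69 in wild-type shoot, and −1.90 and −1.94 in the 23 °C leaf. Leaf minus shoot was −2.49 in either line, and the necrotic line was 0.58 higher in both tissues (SE 0.09). The partly detected wheat0130Contig3423 ran alike, at −7.40 and −7.66 in necrotic cold leaf, −7.80 and −7.39 in wild-type cold leaf, −5.01 and −4.97 in necrotic shoot, −5.06 and −4.88 in wild-type shoot, and −2.85 and −2.78 in the 23 °C leaf. Its lines overlapped in both tissues.

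Nearer the low end, wheat0130Contig14168 had −3.04 and −3.05 in necrotic cold leaf, −2.32 and −2.43 in wild-type cold leaf, −1.76 on both necrotic shoot arrays, −1.75 and −1.79 in wild-type shoot, and 2.81 and 2.74 in the 23 °C leaf. The lines differed in leaf, by −0.67 (SE 0.05), and met in shoot, at 0.01. The level of MUGEST2003_23lib_Contig689_17 was −6.64 and −6.62 in necrotic cold leaf, −7.31 and −7.04 in wild-type cold leaf, −5.87 and −6.00 in necrotic shoot, −4.90 and −5.07 in wild-type shoot, and −1.76 and −1.84 in the 23 °C leaf. Here the necrotic line was the higher in leaf and the lower in shoot, with no overlap of arrays in either tissue.

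At the other end stood MUGEST2003_23lib_Contig3205_120, the only member whose shoots were at least 2-fold below the cold leaf in both lines. Its level was −0.47 and −0.40 in necrotic cold leaf, −0.75 and −1.96 in wild-type cold leaf, −3.15 and −2.96 in necrotic shoot, −3.17 and −3.30 in wild-type shoot, and 3.68 and 3.69 in the 23 °C leaf. The order was 23 °C leaf, then cold leaf, then shoot, with no overlap between these 3. The shoots were 107-fold and 121-fold below the 23 °C leaf in the necrotic and wild-type lines, and the cold leaves 17.4-fold and 32.8-fold below it. The 2 wild-type leaf arrays differed by 1.21, so its leaf line difference of 0.92 (SE 0.34), the highest among members detected on all arrays, was smaller than the spread of 1 group.

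For wheat0130Contig6172 the cold tissues could hardly be separated. Its level was −6.37 and −6.87 in necrotic cold leaf, −6.24 and −6.56 in wild-type cold leaf, −6.52 and −6.17 in necrotic shoot, −7.40 and −7.21 in wild-type shoot, and −1.24 and −1.28 in the 23 °C leaf. Only the wild-type shoot stood below the other cold groups, which gave the highest shoot line difference of the 12, 0.97 (SE 0.20). In ncbi_gi_32129005_1492 the cold tissues were apart, with levels of −5.08 to −5.26 in necrotic and −5.43 to −5.57 in wild-type cold leaf, −5.69 to −5.70 and −5.95 to −6.10 in the shoots of these lines, and −0.45 to −0.42 in the 23 °C leaf. Its leaf arrays lay above its shoot arrays in each line, by 0.52 in necrotic and 0.53 in wild-type plants (SE 0.08 each), and no groups overlapped.

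The likeness of the lines was examined within the limits that imposed it. Among the 12 members detected on all cold leaf arrays, the necrotic leaf was the higher for 7 and the lower for 5, with a median of 0.16 and a range of −0.85 to 0.92. For 6 of these 12 the difference was smaller than 0.5. Among the 18 members detected on all shoot arrays, the necrotic shoot was the higher for 9 and the lower for 9, with a median of −0.01, and 6 differed by less than 0.5. Over all 26 the median line difference was −0.04 in leaf and 0.03 in shoot. By the limma fit 4 members were called higher and 4 lower in necrotic than in wild-type cold leaf, where 24.3% and 29.4% of all probes tested were. In shoot 7 were called higher and 6 lower, where 32.3% and 36.2% of all probes were. Where every array of the tissue detected the member, 3 were called higher and 3 lower in leaf, and 5 higher and 6 lower in shoot. In a fit of only the 27023 probes detected on all 10 arrays, 7121 were called higher and 9412 lower in leaf. In shoot 9621 were higher and 10542 lower, a set detected more strictly than the shoot members. Alike in both lines thus means a difference of at most 2-fold, not the absence of one.

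**Figure D3:**
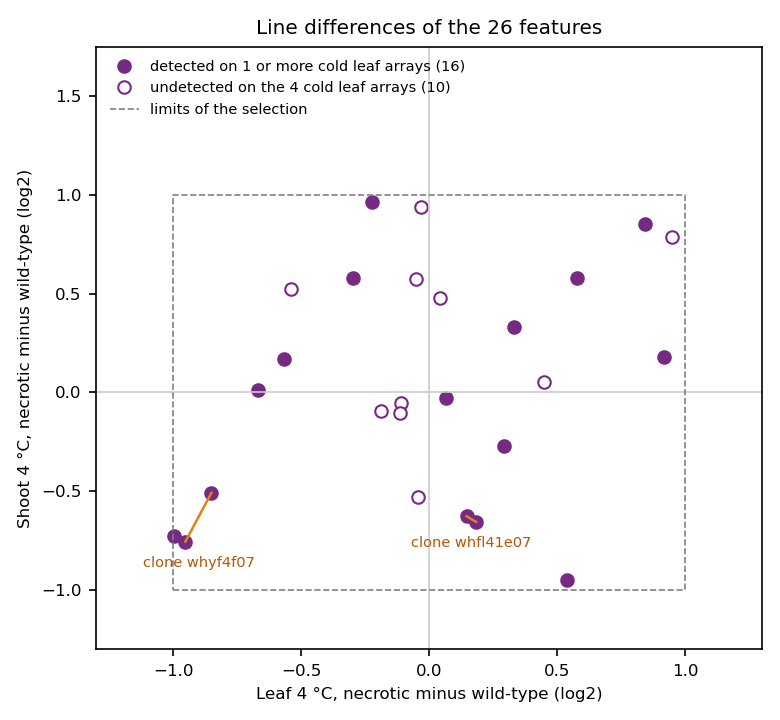
Necrotic minus wild-type difference in cold shoot (vertical axis) against that in cold leaf (horizontal axis), in log2, for the 26 members, with open circles for the 10 undetected on all cold leaf arrays. The dashed square is the selection limit of 1 in each direction, the points fill it, and the lines join the 2 probes of a clone, with the whyf4f07 pair low in both tissues and the whfl41e07 pair low in shoot alone.

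Of the 12 members detected on all arrays, rwhyf4f07 had the lowest leaf line difference. Its level was −4.11 and −4.03 in necrotic cold leaf, −3.21 and −3.23 in wild-type cold leaf, −2.20 and −2.22 in necrotic shoot, −1.74 and −1.66 in wild-type shoot, and 0.88 and 0.81 in the 23 °C leaf. The necrotic arrays lay below the wild-type arrays in both tissues, by −0.85 in leaf and −0.51 in shoot (SE 0.05 each). Its partner whyf4f07, with −7.77 and −7.97 in necrotic and −6.80 and −7.03 in wild-type cold leaf, was the lower in necrotic shoot too, by −0.76. The 2 necrotic cold leaf arrays were the only ones that did not detect whyf4f07, so its leaf line difference has no exact size and its necrotic leaf value is a bound, at least 37.2-fold below the 23 °C leaf, against a measured 19.2-fold in the wild-type leaf.

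MUGEST2003_23lib_Contig14582_393 entered the set by an average of unlike replicates. Its level was −8.65 and −9.33 in necrotic cold leaf, −9.99 and −6.00 in wild-type cold leaf, −7.97 and −8.32 in necrotic shoot, −7.33 and −7.50 in wild-type shoot, and −2.57 and −2.71 in the 23 °C leaf. The 2 wild-type leaf arrays differed by 3.98, only the brighter of them detected the probe, and the mean line difference of −0.996 sits at the limit. Leaving out either necrotic leaf replicate 1 or wild-type leaf replicate 1 took this probe out of the set.

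Membership as a whole was tried in the same way. When any 1 of the 10 arrays was left out, 22 to 26 of the members stayed, and 14 stayed in every case. The 12 that left in at least 1 case include rwhfl41e07, MUGEST2003_23lib_Contig3205_120 and wheat0130Contig6172, which were detected on all arrays and each lie close to a limit. Other processing moved the set more: 20 of the 26 stayed with quantile normalization, 20 with scaling to the median, and 6 with normexp background correction. Among detected values the replicates of the members differed by a median of 0.17 in necrotic and 0.15 in wild-type cold leaf, where all detected probes differed by 0.06 and 0.08. In the 23 °C leaf, where the members are brighter, the figure was 0.06 for members and for all detected probes.

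Some members share a clone name with another probe. Names that differ by a leading r, with any trailing number set aside, form 2587 pairs on the array. The meaning of the r is not in the files. Both probes were detected at 23 °C in 1407 of the pairs. The fall in cold leaf, averaged over the lines, differed by a median of 0.37 within these pairs. In 4 of the 1407 pairs at least 1 probe fell by 4 or more and in 2 pairs both did, and these 2 pairs are the clones whfl41e07 and whyf4f07. Within each of them the shapes over the groups ran parallel, but both probes of each were selected for that pattern, so this is no independent check.

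Another 2 members had a partner outside the set. For clone whf24h06 the member rwhf24h06 was detected at 23 °C alone, at −4.35 and −4.56. Its partner whf24h06 was undetected at 23 °C and in cold leaf and detected on all shoot arrays, at −7.04 and −7.24 in necrotic and −7.77 and −7.54 in wild-type line. The patterns of the pair differed, but the lowest level counted as above background was −7.24 and −7.16 on the 23 °C arrays. On the shoot arrays it was lower, at −8.61 to −8.38. The partner's shoot levels lie near or below the limit at 23 °C, so its own difference between shoot and 23 °C leaf is not settled. For clone whms18p11 the member rwhms18p11_773 was detected in the 23 °C leaf and the shoots, and the partner whms18p11_251 on 1 necrotic and both wild-type shoot arrays only.

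**Figure D4:**
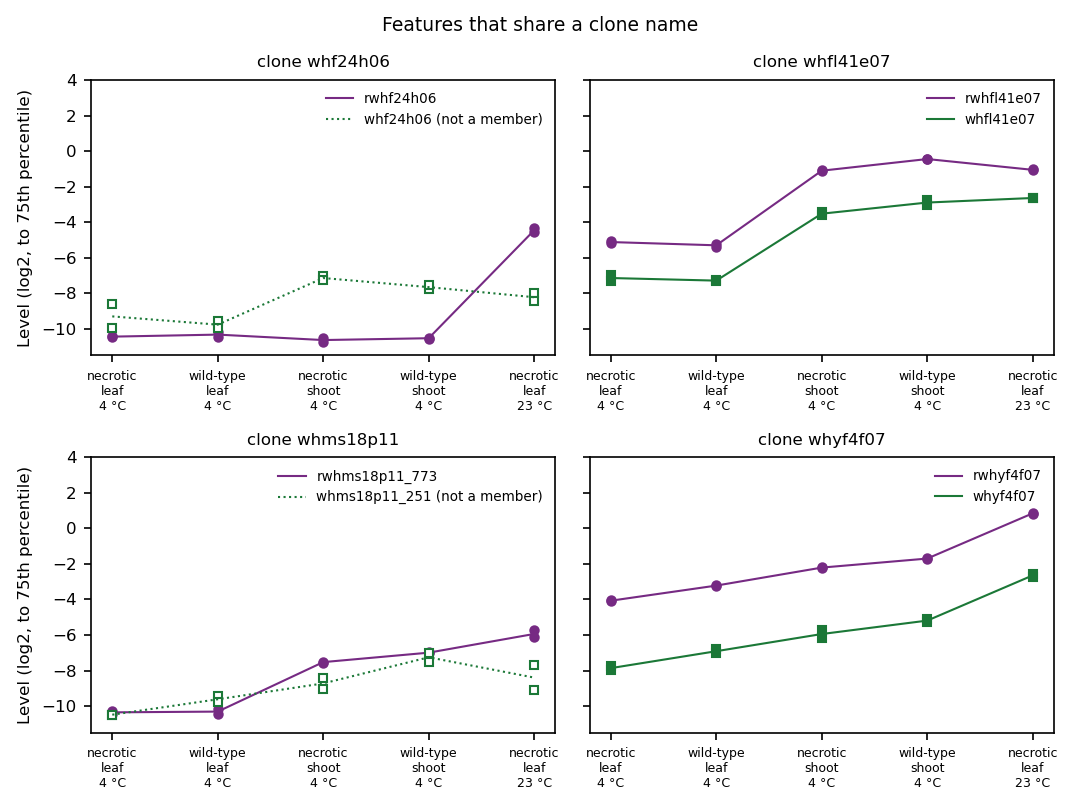
Level (log2, relative to the array's 75th percentile) of both probes of the 4 clones with a member, over the 5 groups, with a point per array and lines through the group means. Dotted lines with open squares are partners outside the set, which the 23 °C arrays did not detect. The whfl41e07 and whyf4f07 pairs run parallel, and the whf24h06 pair does not.

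The kinds of name and the places on the array are given as a description, with no test. Contigs named wheat0130 made up 30.8% of the members and 39.5% of the probes detected at 23 °C, clones with a leading r 23.1% and 12.1%, and names with a gi number 7.69% and 0.386%, which is 2 members. Of 4 areas of the array, each with 24.6% to 25.4% of all probes, those in the first rows held 5 and 11 members and those in the last rows 4 and 6.

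Probes outside the set were also compared with the median profile of the members over the 5 groups. Of 28232 other probes detected at 23 °C, 39 had a Pearson r above 0.99 with it over the 5 group means, as a description over few points that share arrays. The most alike were rwhoh17d24, with an r of 0.99894, and wheat0130Contig532, with an r of 0.99851. In these the cold leaf lay lower than the 23 °C leaf by far less, at −1.88 in necrotic and −1.77 in wild-type line for rwhoh17d24, and at −1.41 and −1.32 for wheat0130Contig532.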

How the data were processed

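Cy3-labelled cRNA from leaf or shoot RNA was hybridised to one-colour Agilent arrays, 1 per sample and 2 per group, per the labels' protocols. The authors deposited scanner tables of spot intensity values, linear, with the background subtracted and no scaling between arrays, per the file headers. They come from Agilent Feature Extraction. Its version reads 10.5.1.1 in the file headers, whereas the submitters' processing notes give 9.5. The series matrix repeats the same intensity values, with a largest relative difference of 0 over the 39243 features. It is linear and uncentred, with column medians of 104.8 to 316.1.

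Control spots were left out, and each level was the log2 processed signal minus the 75th percentile of its array. Groups came from the sample titles. Members were found by the limits given in the report, with no spot set missing, and 0 of their spots had an outlier mark. Members, lists and limits were chosen with earlier results of these data known. Named probes are the extremes of fall, of level at 23 °C, of shoot level and of line difference, those nearest the limit, those sharing a clone, and the most alike outside the set. Other probes are named where their detection or replicates stand apart, chosen after their values were seen. The 11 gene lists and the tissue markers could not be matched to probes.

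For the background shares, the 33045 probes detected by both arrays of some group were fitted in limma (version 3.58.1, functions lmFit and eBayes, R 4.3.3), with 1 mean per group over the 10 arrays and marked spots missing. Calls were made at a two-sided, Benjamini-Hochberg adjusted p under 0.05. The fit was tested on simulated data. Standard errors come from this fit, and 2 arrays per group limit their precision. The alternatives were normexp background correction (offset 50, on the median spot signal, since the scanner tables used here have no mean signal column), quantile normalization, other scalings, other filters, a replicate block and leaving out each array. Same-numbered replicates did not deviate together, with correlations of −0.01 to 0.06 over 10 pairs of groups.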

Additional observations from a re-analysis of the deposited data

Results flagged for a closer look

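In 3 members every necrotic array lay on one side of the wild-type arrays in leaf and on the other side in shoot. None of these differences between tissues was tested, and the selection held each line difference within 1. The share of all probes with such an order of arrays was not counted, so nothing is read from the number of members that show it. By the limma fit the leaf line difference was not called for rwhfl41e07 (SE 0.08) or rwhvd17h21_256 (SE 0.11). The leaf minus the shoot line difference was 0.84 for rwhfl41e07, whose necrotic leaf was 0.18 above and whose necrotic shoot was 0.66 below the wild type on the log2 scale. Its nearest leaf arrays were barely apart, at −5.20 in necrotic and −5.21 in wild-type line. The clone partner whfl41e07 had mean differences in the same directions, but its lines overlapped in leaf. The value was −0.88 for rwhvd17h21_256, whose necrotic line was lower in leaf (−0.30) and higher in shoot (0.58). It was 1.49 for MUGEST2003_23lib_Contig689_17, higher in necrotic leaf (0.54) and lower in necrotic shoot (−0.95), with 1 of its 2 wild-type leaf arrays not well above background.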

How the results depend on the processing

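No alternative turned the direction of any member's fall. The count of probes meeting the limits was 26, and 13 with normexp correction (6 of them members), 12 when detection on all 10 arrays was asked, 69 with falls of at least 3 and 12 with falls of at least 5. Leaving out 1 array gave 23 to 37, with 34 and 37 when 23 °C leaf replicate 1 or 2 was left out. Quantile normalization gave 24 (20 members) and median scaling 20 (20 members). With normexp 5 members in place of 14 were low in shoots.

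The members' median fall in necrotic leaf was −3.06 with normexp, −4.86 with quantile normalization and −4.83 for the members detected on all arrays, and −5.24 to −5.11 leaving out 1 array. In wild-type leaf it was −3.18 with normexp, −4.82 with quantile normalization and −4.98 with median scaling, and −5.22 to −5.01 leaving out 1 array. The median of leaf minus shoot in the necrotic line was −0.0143 with normexp, −0.41 with quantile normalization, −0.80 with median scaling and −1.89 for members detected on all arrays, and −1.31 to −1.14 leaving out 1 array. In the wild-type line it was −0.0424, −0.21, −0.21 and −1.35 under the same settings, −0.78 with the percentile taken over detected probes, and −1.31 to −0.53 leaving out 1 array, the lowest without wild-type leaf replicate 2. The median of all probes shifted too: leaf minus shoot was −0.24 and −0.22 in the necrotic and wild-type lines, 0.11 and 0.15 with quantile normalization, and 0.19 and 0.17 with median scaling, while the falls were −0.48 in both lines with normexp.

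Counts of called probes stayed within 0.834 to 1.15 times the main counts. The higher share of calls in necrotic cold leaf against 23 °C was 41.1%, and 27.2% with normexp. In wild-type leaf it was 42.6%, 28.1% with normexp, 50.7% with quantile normalization and 51.2% with median scaling. In necrotic shoot against 23 °C leaf it was 54.2%, 36.1% with normexp and 43.3% with median scaling. In necrotic leaf against shoot it was 41.3%, 54.3% with quantile normalization and 57.2% with median scaling, and in wild-type leaf against shoot 44.7%, 54.3% and 54.2% in the same order. With the replicate number as a block, 25357 probes were called in necrotic leaf against 23 °C in place of 25401, and the block moved no other count of calls by over 1.5 times. The cause of these movements was not tested.

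Low signal is one limit of the set. Only the least size of the fall, by the main processing, is known for the 12 members undetected in necrotic and the 10 undetected in wild-type cold leaf. With 2 arrays per group, single-array values such as those of MUGEST2003_23lib_Contig14582_393 stay undecided.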
